A study of Mus musculus with 10 samples.

Results

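The genes of integrin adhesion were examined in mouse hematopoietic stem cells (HSCs) with and without the transcriptional coregulator *Cited2*. They comprised 48 genes chosen by symbol, 24 of them integrin subunits and 24 of them talins, kindlins, tensins and other proteins of focal adhesions, out of 26146 genes in the count table. RNA was sequenced in bulk from sorted Lin-Sca1+Kit+ (LSK) CD48-CD150+ bone marrow HSCs, with 1 library for each of 5 *Cited2* CTL and 5 *Cited2* CKO mice. *Cited2* CTL mice were *Cited2* fl/fl without Cre (labelled wildtype), and *Cited2* CKO mice were *Cited2* fl/fl;*Vav-iCre*, in which *Cited2* is deleted throughout the hematopoietic system and not in HSCs alone. All mice were on the C57BL/6J background and aged 8 to 12 weeks. The comparison addressed which adhesion genes differed in HSCs of *Cited2* CKO mice. Since the libraries were bulk, fewer cells of a type and less RNA per cell cannot be told apart.

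Integrins are receptors made of an alpha and a beta chain that tie the cell to extracellular matrix or to counter-receptors on other cells. Talins and kindlins bind the beta tail and switch the receptor on, after which the ILK, PINCH and parvin complex, kinases, docking proteins, tensins and actin linkers join the receptor to the cytoskeleton. In bone marrow, integrins hold HSCs in their niche and take part in homing after transplantation. Tensins bind integrin tails, and most of them also bind actin filaments.

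The total count of a library was 3058690 to 4548795 in the *Cited2* CTL and 3500215 to 4315029 in the *Cited2* CKO group. These are deposited counts over genes, and the paper reports far more sequenced reads per sample. The reason for that gap is not given in the sources used here. HSC markers were present in every library. Together, 11 of them reached 2061 to 2323 CPM (counts scaled by library size after TMM) in *Cited2* CTL and 1851 to 2090 CPM in *Cited2* CKO HSCs. That sum was lower in *Cited2* CKO HSCs (two-sided exact permutation p = 0.0397, not adjusted), while single markers went in either direction. *Cited2* itself lay between 101 and 222 CPM in the *Cited2* CTL libraries and between 3.80 and 8.30 CPM in 4 *Cited2* CKO libraries, but the library labelled CKO 3 had 120.1 CPM, which goes against its label. It was kept in its labelled group, and results that change without it are given beside the result. With it, *Cited2* itself had a log2 fold change of -2.51 (SE 0.94, adjusted p = 0.328, edgeR) and was not called. The libraries CTL 5 and CKO 5 stood apart by *Mpo*, a granule gene of myeloid progenitors, with 189.7 and 108 CPM against 6.18 to 19.99 CPM in the others. *Xist* was high in 2 of 5 libraries of each genotype, so both groups mixed the sexes.

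A single adhesion gene passed the test between the genotypes. *Tns2*, which encodes the adaptor tensin 2, was 4.69-fold lower in *Cited2* CKO HSCs. Of the 48 genes, 39 had enough counts to be tested, and the other 9 (*Itga1*, *Itga7*, *Itga11*, *Itgad*, *Itgax*, *Tln2*, *Parva*, *Bcar1* and *Tns4*) did not. Estimates were higher in *Cited2* CKO HSCs for 21 and lower for 18 of the tested genes, with a median log2 fold change of 0.05, against 0.01 for all 14165 tested genes. By the quasi-likelihood F test of edgeR, adjusted after Benjamini-Hochberg, 0 were called higher and 1 lower (adjusted p under 0.05 and fold change above 20%), where 0.12% and 0.106% of all tested genes were called. By DESeq2's Wald test on the same counts, 1 gene (*Itgal*) was called higher and 2 (*Tns1* and *Tns2*) lower, where it called 1.1% and 1.44% of the genes to which it gave an adjusted p.

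Before adjustment, p was under 0.05 for 4 genes with higher estimates (*Itga2*, *Itga6*, *Itgal* and *Itgam*) and 5 with lower ones (*Tln1*, *Ptk2b*, *Tns1*, *Tns2* and *Actn4*). These were 10.3% and 12.8% of the 39 tested genes, against 5.8% and 7.08% of all tested genes, a gap that was not tested. The genes were chosen with earlier results of these data known, so these shares only describe the set. The CPM of the genotypes did not overlap for 2 genes, both lower (*Tns2* and *Actn4*), and for 0 that were higher, against 1.98% and 1.35% of all tested genes.

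**Figure D1:**
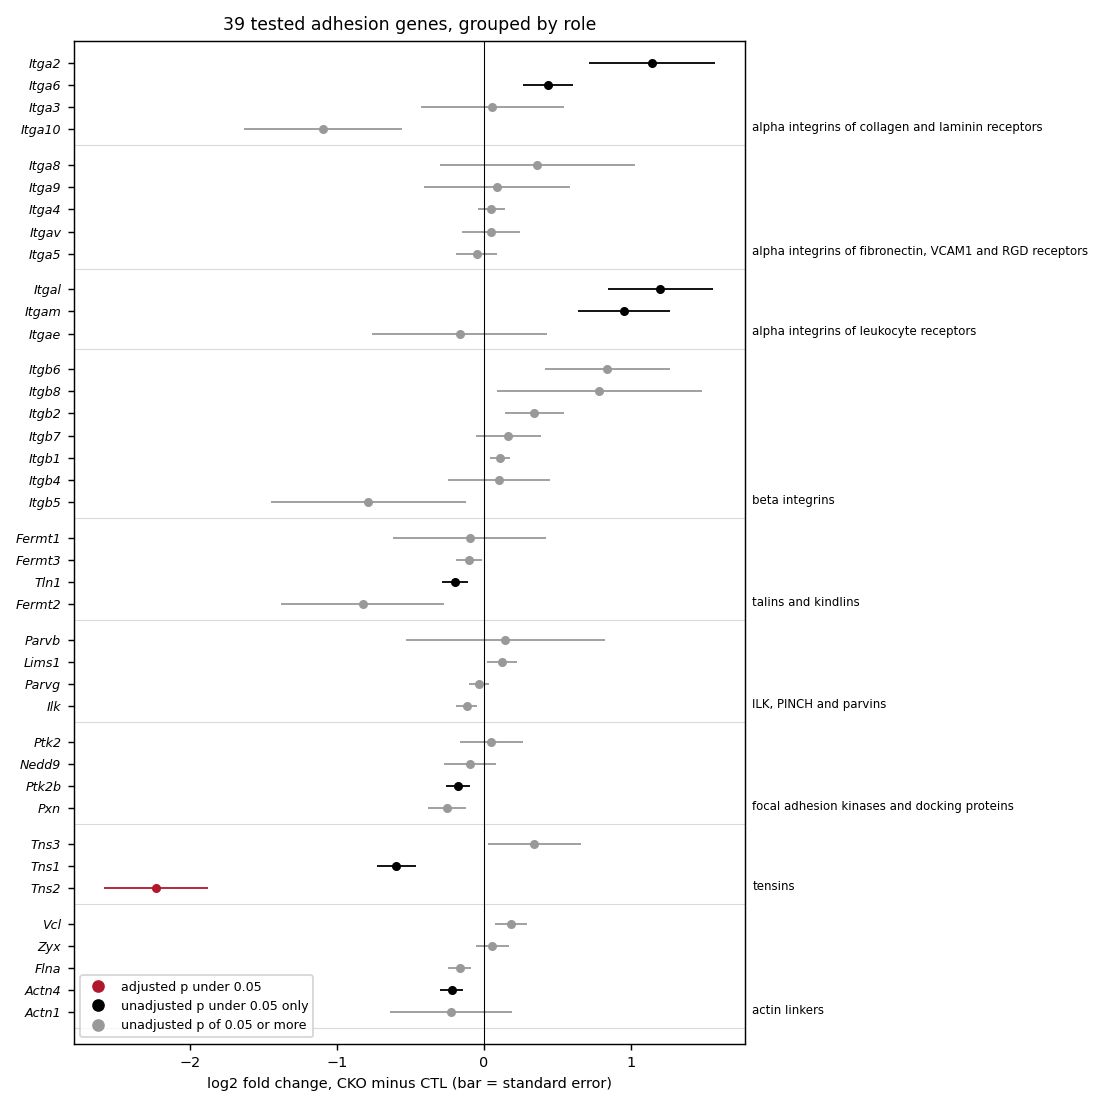
Log2 fold changes (x axis, *Cited2* CKO minus *Cited2* CTL, bars are standard errors, n = 5 per genotype) of the 39 tested genes in rows by role, with genes called by edgeR in red and those with an unadjusted p under 0.05 alone in black. *Tns2* lies farthest from 0 at -2.23, and it alone is red.

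Levels were compared between genes as RPKM, which scales CPM to the length of each gene in kilobases. In *Cited2* CTL HSCs, *Fermt3*, the kindlin of blood cells, stood highest at 143 ± 12.6 RPKM (SD, n = 5), followed by *Ilk*, the pseudokinase at the core of the adhesion complex, at 106 ± 2.25 RPKM. Next in order came *Itgb1* (90.2 RPKM), *Zyx* (84.5), *Parvg* (79.3), *Ptk2b* (65.1), *Lims1* (52.8), *Actn4* (52.6), *Flna* (48.5) and *Tln1* (48.4). *Itga4* had 31.7 RPKM and *Vcl* 23.7 RPKM. The order covers the set alone, and the integrin genes *Itga2b* (68.5 RPKM) and *Itgb3* (9.51 RPKM) lie outside it, among the platelet markers. The ranges over libraries of *Fermt3*, *Ilk*, *Parvg*, *Ptk2b*, *Tln1* and *Itga4* stood clear of the gene next in order, whereas those of 15 of the 21 neighbouring pairs among the 22 genes of 5 RPKM or more overlapped. *Tns2* was the lowest of these 22 at 6.48 RPKM, and 15 genes had under 1 RPKM.

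Within most families a single member carried the expression in *Cited2* CTL HSCs. *Fermt3* had 54.4 times the RPKM of *Fermt2*, *Tln1* 200.3 times that of *Tln2*, *Parvg* 117 times that of *Parvb* and *Actn4* 21.7 times that of *Actn1*. The docking protein *Nedd9* had 16.8 times the RPKM of its relative *Bcar1*, and the kinase *Ptk2b* (PYK2) 7.89 times that of *Ptk2* (focal adhesion kinase). The tensins were less unequal, with *Tns1* at 2.05 times the RPKM of *Tns2*, a ratio that was 6.39 in *Cited2* CKO HSCs.

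**Figure D2:**
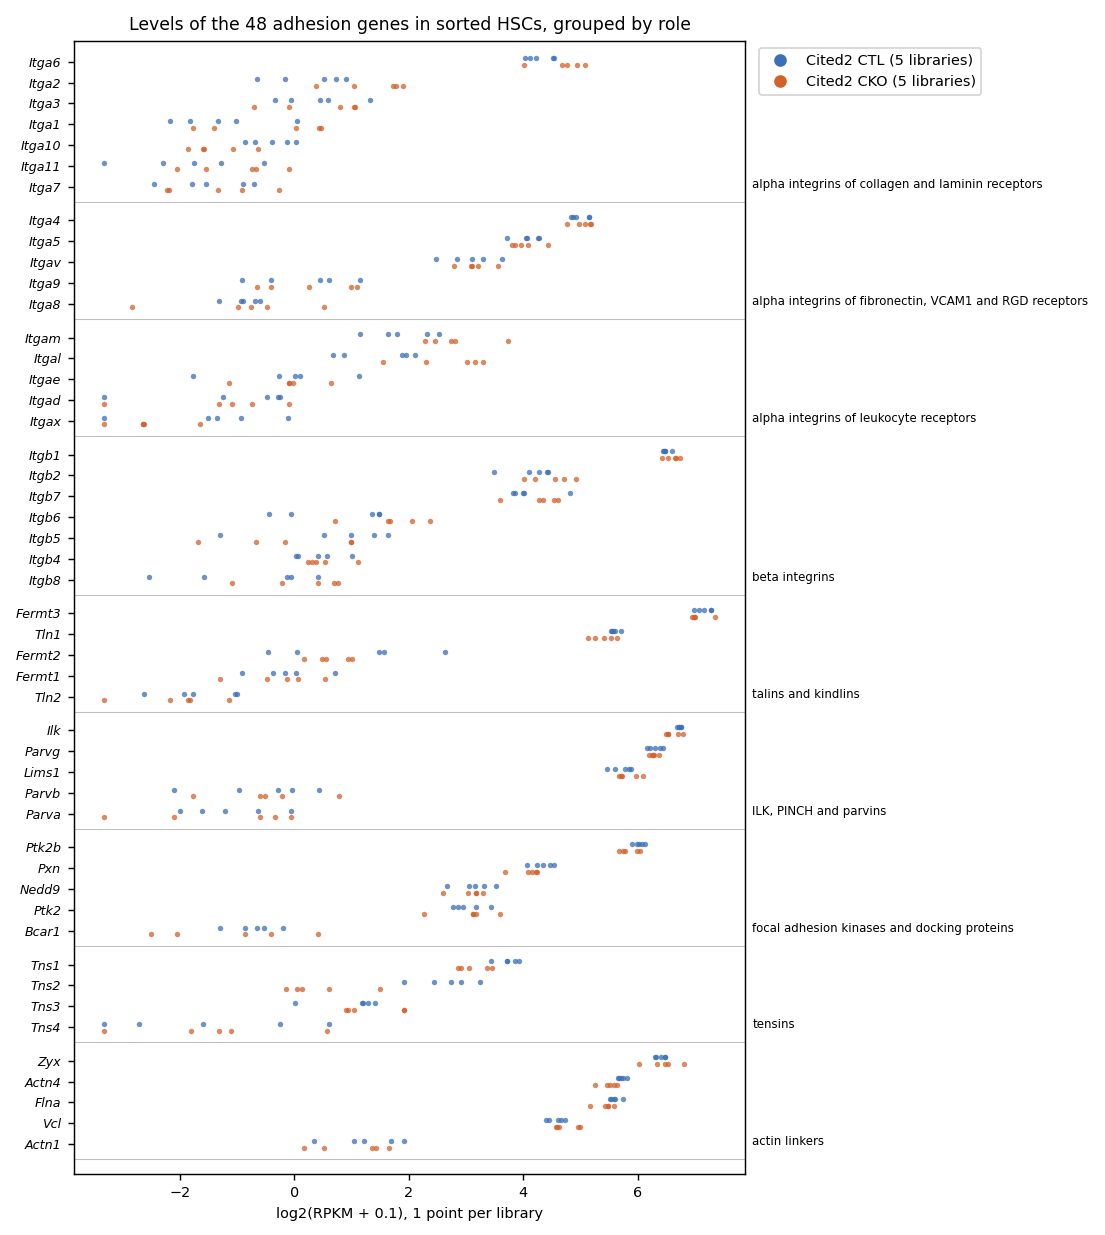
Levels of all 48 genes as log2(RPKM + 0.1) on the x axis, 1 point per library, blue for *Cited2* CTL and orange for *Cited2* CKO (5 libraries each), in rows by role. One or a few genes stand high in each role, *Fermt3* highest, and only in the rows of *Tns2* and *Actn4* do the points of the genotypes separate.

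Among the tensins, the gene called lower was *Tns2*, on the plus strand of chromosome 15 (102100413 to 102116401, GRCm38), with no exon shared with another gene. In *Cited2* CTL libraries 1 to 5 it had 17.4, 35.1, 44.1, 31.0 and 24.9 CPM, from 52 to 150 counts. In *Cited2* CKO libraries 1 to 5 it had 3.80, 6.68, 12.8, 4.70 and 4.38 CPM, from 16 to 54 counts. Every *Cited2* CKO library lay below every *Cited2* CTL library. The highest of them was CKO 3, the library in which *Cited2* was still expressed. A link between its *Cited2* and its *Tns2* level was not tested. The mean went from 30.5 ± 10.1 to 6.47 ± 3.68 CPM (SD, n = 5 per genotype), and the log2 fold change was -2.23 (SE 0.35, adjusted p = 0.0192, edgeR, Benjamini-Hochberg over all tested genes). A two-sided exact permutation test of the CPM gave p = 0.00794, the smallest that 5 against 5 libraries allow.

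Without the library labelled CKO 3, the log2 fold change of *Tns2* was -2.64 (adjusted p = 0.00263, edgeR). The call was lost, with the direction unchanged, when any 1 of the libraries CTL 2, CTL 3, CTL 4, CKO 1, CKO 2 or CKO 5 was left out (adjusted p = 0.0735, 0.0579, 0.0635, 0.0546, 0.0681 and 0.0551, edgeR). It was also lost with a correction for gene length and GC content (log2 fold change -1.97, adjusted p = 0.0638, edgeR), and with CTL 5 and CKO 5 both left out (-2.19, adjusted p = 0.0599).

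*Tns1* encodes tensin 1, the most abundant tensin in these cells. It had 107, 130.1, 143, 129.9 and 150.1 CPM in *Cited2* CTL libraries 1 to 5 and 108, 102, 74.5, 71.1 and 82.0 CPM in *Cited2* CKO libraries 1 to 5. All but CTL 1, at 107 CPM, lay above every *Cited2* CKO library, so the groups overlapped by that library alone. The log2 fold change was -0.59 (SE 0.13, adjusted p = 0.0781, edgeR), which did not pass the threshold, and that of DESeq2 was the same size with an adjusted p of 0.00356. With the correction for gene length and GC content the adjusted p in edgeR was 0.315.

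The estimate for *Tns3* was 0.34 on the log2 scale (SE 0.31, adjusted p = 0.693, edgeR), with 15.2 ± 4.82 CPM in *Cited2* CTL and 19.3 ± 7.45 CPM in the *Cited2* CKO group (SD, n = 5 per genotype). *Tns4* was not tested, with 0 to 28 counts per library and no read in CTL 1 and CKO 5. To ask whether *Tns2* differed relative to its own family, the log2 ratio of CPM (plus 1 CPM) was taken in each library for 6 pairs of related genes. The ratio of *Tns2* to *Tns3* was 2.45 lower on the log2 scale in *Cited2* CKO HSCs, with no overlap between groups (exact permutation p = 0.00794, 0.0476 after Benjamini-Hochberg adjustment over the 6 ratios). The ratio of *Tns2* to *Tns1* was 1.53 lower (exact permutation p = 0.0238, adjusted 0.0714), and without CKO 3 it was 1.83 lower (adjusted p = 0.0238). The groups came close for the ratio to *Tns3*, with the lowest *Cited2* CTL library at -0.13 and the highest *Cited2* CKO library at -0.19. The ratio to *Tns1* did not pass the adjusted threshold with all 10 libraries. *Tns2* was already called in these libraries, so neither ratio is separate support for that call. With each library left out in turn, the ratio of *Tns2* to *Tns3* was 2.14 to 2.77 lower, and the adjusted p was 0.0714 to 0.0952 unless CKO 3 or CKO 4 was the library left out. With 4 against 5 libraries, the smallest exact p over 126 arrangements was 0.00794 before adjustment. That is the same limit as with all 10 libraries, so the ratio could still pass there.

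**Figure D3:**
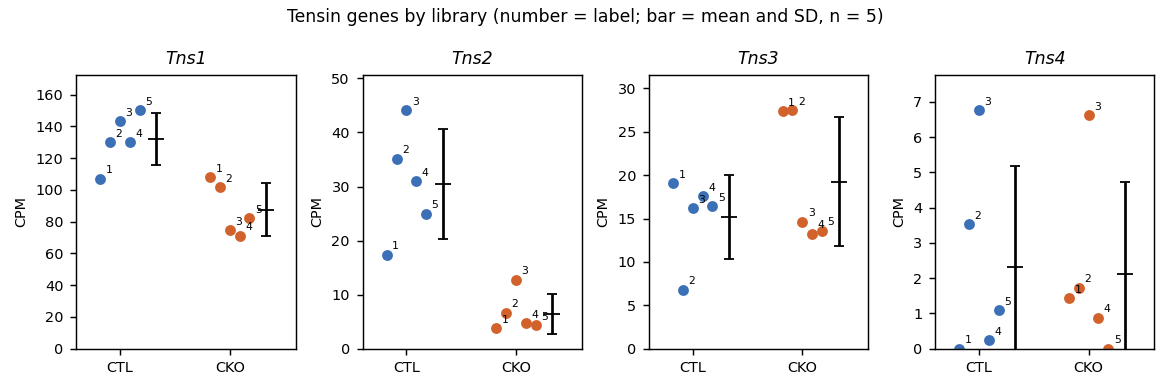
CPM (y axis) of the 4 tensin genes in each *Cited2* CTL (blue) and *Cited2* CKO (orange) library, with the label number beside each point and the mean and SD of 5 libraries as black bars, cut off at 0. For *Tns2* all *Cited2* CKO points, 3.80 to 12.8 CPM, sit below the lowest *Cited2* CTL point at 17.4 CPM, and for *Tns3* and *Tns4* the points intermix.

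The start sites of the 3 expressed tensins are shown as a description. A link between their sequence and the expression of these genes was not tested. The windows hold 250 bases before to 50 after the start (RefSeq, GRCm38.p6), 5′ to 3′ on the strand of the gene, from chr1:74124499-74124798 (minus strand, *Tns1*), chr15:102102684-102102983 (plus strand, *Tns2*) and chr11:8664486-8664785 (minus strand, *Tns3*). The *Tns1* window lies wholly before the GENCODE gene, which starts at 74124449, so the annotations place that start differently. Capitals mark matches, on either strand, to 5 short motifs. Hypoxia-inducible factors bind around ACGTG. Erythroid and stem cell factors of the GATA family bind AGATAA. The RUNX family binds TGTGGT and the ETS family CCGGAA. The GC box bound by SP1 is GGGCGG.
Tns1: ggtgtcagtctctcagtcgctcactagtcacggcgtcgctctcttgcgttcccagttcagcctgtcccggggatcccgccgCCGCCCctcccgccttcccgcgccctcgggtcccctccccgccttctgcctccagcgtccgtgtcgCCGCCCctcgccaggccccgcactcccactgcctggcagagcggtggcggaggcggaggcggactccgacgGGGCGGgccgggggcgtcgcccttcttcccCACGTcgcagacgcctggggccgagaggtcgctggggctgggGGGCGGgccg
Tns2: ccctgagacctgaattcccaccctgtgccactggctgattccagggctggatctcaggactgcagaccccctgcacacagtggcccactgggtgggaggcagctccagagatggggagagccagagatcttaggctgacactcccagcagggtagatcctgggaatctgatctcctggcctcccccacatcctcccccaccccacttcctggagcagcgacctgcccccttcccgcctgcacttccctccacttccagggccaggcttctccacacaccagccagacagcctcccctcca
Tns3: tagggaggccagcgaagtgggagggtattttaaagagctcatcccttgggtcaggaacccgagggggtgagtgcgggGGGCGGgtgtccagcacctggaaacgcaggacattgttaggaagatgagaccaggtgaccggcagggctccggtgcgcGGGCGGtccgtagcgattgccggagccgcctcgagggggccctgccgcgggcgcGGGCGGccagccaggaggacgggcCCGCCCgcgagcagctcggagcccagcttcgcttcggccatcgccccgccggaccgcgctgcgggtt
The *Tns1* window held 4 matches to GGGCGG and 1 to ACGTG, the *Tns3* window 4 to GGGCGG, and the *Tns2* window none to any of the 5. Only these exact letters were searched, so other forms of the same sites are not marked. Of all 32851 windows in the table, 35.7% held GGGCGG, 19.6% ACGTG, 16.8% TGTGGT, 14.9% CCGGAA and 11.2% AGATAA, each on either strand, and matches of different motifs may share bases.

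The *Tns2* window had 2 CG dinucleotides, and 14.1% of all windows had fewer. The *Tns1* window had 37 and the *Tns3* window 33, more than 94.4% and 91.4% of windows. The GC content of the *Tns2* window, 63.7%, lay between the median of all windows (52.7%) and those of *Tns1* (75.7%) and *Tns3* (70.7%). The start used for the *Tns2* window lies inside the GENCODE gene, which begins at 102100413, so other starts of *Tns2* are not shown by it. Windows were found for 35 of the 48 genes (42 windows), with a median of 61.3% GC and 16 CG dinucleotides against 7 in all windows. A match is a description of the letters and not a bound site.

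Among the integrin alpha chains of collagen and laminin receptors, 4 of 7 were tested and 0 called. *Itga6*, a laminin receptor chain used to sort stem cells, had 68.6, 78.6, 72.9, 96.0 and 97.4 CPM in *Cited2* CTL libraries 1 to 5. It had 114, 142, 67.8, 108 and 129 CPM in *Cited2* CKO libraries 1 to 5. Every *Cited2* CKO library but CKO 3 lay above all *Cited2* CTL libraries, and CKO 3 lay below them all. The log2 fold change was 0.44 (SE 0.17, adjusted p = 0.313, edgeR), and 0.57 without CKO 3 (adjusted p = 0.0938), so the difference did not pass the threshold in either set.

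*Itga2*, the alpha chain of a collagen-binding integrin of platelets, had 3.34, 2.27, 5.59, 6.58 and 7.44 CPM in *Cited2* CTL and 13.5, 15.3, 13.9, 8.23 and 5.07 CPM in *Cited2* CKO libraries 1 to 5. The groups overlapped by CKO 5, and with 9 to 62 counts per library the difference (log2 fold change 1.14, SE 0.43, adjusted p = 0.291, edgeR) was uncertain. *Itga3* (0.06) and *Itga10* (-1.09) had adjusted p-values of 0.975 and 0.416 in edgeR. *Itga1*, which neighbours *Itga2* at a distance of 21.0 kb on chromosome 13, was not tested, with 3 to 30 counts per library. *Itga7* and *Itga11* had at most 10 and 14 counts.

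The alpha chains of the set that bind fibronectin, VCAM1 and RGD motifs were all tested, with 0 of 5 called and log2 fold changes from -0.05 to 0.36. *Itga4*, which anchors HSCs to VCAM1 on marrow stroma, had 347, 281, 286, 296 and 349 CPM in *Cited2* CTL libraries 1 to 5. It had 356, 353, 268, 308 and 331 CPM in *Cited2* CKO libraries 1 to 5. The groups were mixed throughout, with a log2 fold change of 0.05 (SE 0.09, adjusted p = 0.863, edgeR). *Itga5*, the fibronectin receptor chain, had 57.2, 84.6, 83.5, 72.9 and 71.8 CPM in *Cited2* CTL and 67.5, 63.1, 60.3, 94.1 and 73.5 CPM in *Cited2* CKO libraries. Its log2 fold change was -0.05 (SE 0.14, adjusted p = 0.916, edgeR). Both signs depended on the setting, with *Itga4* at -0.16 and *Itga5* at 0.17 under the correction for gene length and GC content. *Itgav* had 60.8 ± 18.6 and 62.9 ± 12.3 CPM (SD, n = 5 per genotype), and the log2 fold change was 0.05, and *Itga8* and *Itga9* had 1 to 61 counts per library.

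Of the leukocyte alpha chains, 3 of 5 were tested and 0 called by edgeR, and *Itgal* had the largest positive estimate of all 39 tested genes. *Itgal*, which pairs with *Itgb2* into the receptor of ICAM proteins on leukocytes, had 9.03, 19.7, 22.0, 7.80 and 18.8 CPM in *Cited2* CTL libraries 1 to 5. It had 14.7, 46.0, 25.3, 42.0 and 50.7 CPM in *Cited2* CKO libraries 1 to 5. All *Cited2* CKO libraries but CKO 1 lay above the *Cited2* CTL range. The log2 fold change of 1.201 (SE 0.36, adjusted p = 0.176, edgeR) passed the threshold only in DESeq2 (adjusted p = 0.0428).

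*Itgam*, the alpha chain of the complement receptor of myeloid cells, had 15.7, 26.5, 14.1, 22.9 and 9.85 CPM in *Cited2* CTL and 30.9, 62.1, 32.1, 25.3 and 22.4 CPM in *Cited2* CKO libraries 1 to 5. CKO 4 and CKO 5 lay within the *Cited2* CTL range and CKO 2 stood above all others. The log2 fold change was 0.95 (SE 0.31, adjusted p = 0.230, edgeR), and without CKO 2 it was 0.63 (adjusted p = 0.457). *Itgae* had 4 to 38 counts (log2 fold change -0.17, adjusted p = 0.935, edgeR). *Itgad* and *Itgax*, which lie 3.72 kb apart and beside *Itgam* on chromosome 7, had at most 14 and 10 counts and were not tested.

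Markers of other blood cells were read beside these alpha chains. The summed level of 9 myeloid and macrophage markers ranged from 295 to 653 CPM in *Cited2* CTL and from 309 to 499.6 CPM in *Cited2* CKO libraries, with 0 of 9 without overlap. The 9 megakaryocyte and platelet markers summed to 638 to 787 CPM and 659 to 811 CPM, also with 0 of 9 without overlap. The 6 T and NK cell markers summed to 49.5 to 99.99 and 87.0 to 128 CPM, of which *Nkg7* gave most, and *Cd3e*, *Cd3d*, *Cd8a*, *Ncr1* and *Gzma* stayed under 5 CPM in every library. The 5 mast cell and basophil markers summed to 34.6 to 58.2 CPM in *Cited2* CTL and 64.8 to 138 CPM in *Cited2* CKO libraries, with *Fcer1a* higher without overlap and *Prss34* and *Cma1* under 5 CPM. *Cd48*, whose absence from the surface was required by the sort, had 21.6 ± 5.53 CPM in *Cited2* CTL and 49.0 ± 9.15 CPM in the *Cited2* CKO group (SD, n = 5 per genotype), and its log2 fold change was 1.18 (adjusted p = 0.0264, edgeR). It alone was without overlap among 6 markers of multipotent progenitors and lymphoid cells, which summed to 521 to 614 CPM in *Cited2* CTL and 531 to 620 CPM in *Cited2* CKO libraries, with *Flt3* at -0.36 and *Cd34* at -0.04 on the log2 fold change scale. The part of these cell types in the values of *Itgal*, *Itgam* and *Itga2* was not tested.

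**Figure D4:**
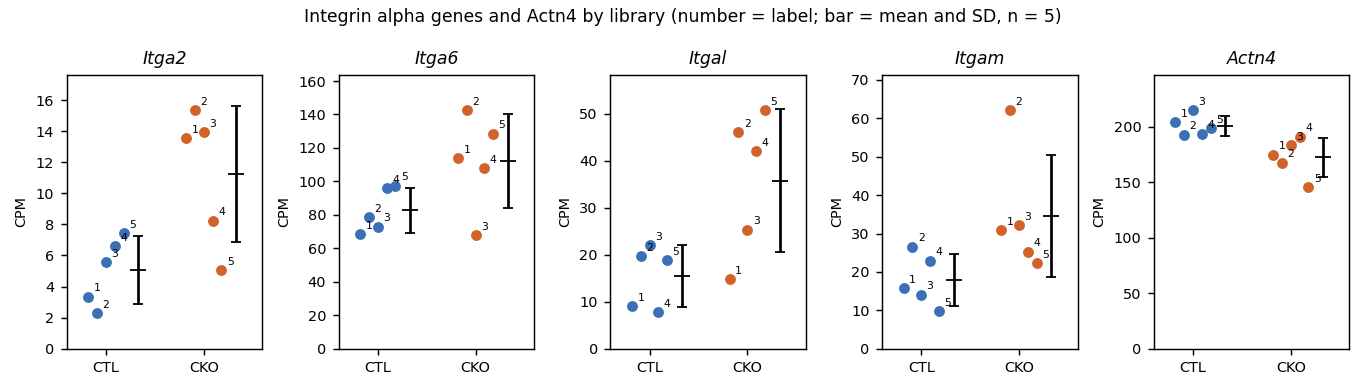
CPM (y axis, from 0) of the 4 integrin alpha genes with an unadjusted p under 0.05 and of *Actn4*, in each *Cited2* CTL (blue) and *Cited2* CKO (orange) library, numbered by label, with mean and SD of 5 libraries as black bars. The integrin panels overlap by 1 or 2 *Cited2* CKO libraries, such as CKO 3 at 67.8 CPM for *Itga6*, and *Actn4* separates by a small step.

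All 7 beta chains of the set were tested and 0 were called, with 6 estimates higher and 1 lower. *Itgb3* lies outside the set and was read as a platelet marker (log2 fold change 0.02, adjusted p = 0.981, edgeR). *Itgb1*, the partner of most alpha chains of matrix receptors, had 408, 374, 372, 371 and 366 CPM in *Cited2* CTL and 420.5, 448, 388, 426 and 362 CPM in *Cited2* CKO libraries 1 to 5. CKO 5 was the lowest of all 10, and the log2 fold change was 0.11 (SE 0.07, adjusted p = 0.520, edgeR). *Itgb2*, the partner of the leukocyte alpha chains, had 60.9, 48.8, 55.0, 31.7 and 61.5 CPM in *Cited2* CTL and 66.8, 74.7, 46.1, 86.7 and 52.5 CPM in *Cited2* CKO libraries 1 to 5. Its estimate of 0.34 (SE 0.20, adjusted p = 0.508, edgeR) was smaller than those of *Itgal* and *Itgam*, and the ratio of *Itgb2* to *Itgb1* did not differ past the threshold (log2 difference 0.23, exact permutation p = 0.349, adjusted 0.524). *Itgb7*, which lies 99.6 kb from *Tns2*, had 47.4 ± 15.6 and 53.0 ± 12.9 CPM (SD, n = 5 per genotype), and the log2 fold change was 0.17. *Itgb6* had an estimate of 0.84 (adjusted p = 0.429, edgeR), and *Itgb4*, *Itgb5* and *Itgb8* had 1 to 54 counts per library.

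Of the activators at the beta tail, 4 of 5 were tested, all with estimates below 0 and none called. *Tln1*, the talin of blood cells, had 406, 402, 447, 416 and 398 CPM in *Cited2* CTL and 363, 427, 325, 395 and 299 CPM in *Cited2* CKO libraries 1 to 5. CKO 2 lay within the *Cited2* CTL range and the other 4 below it. The log2 fold change was -0.20 (SE 0.09, adjusted p = 0.379, edgeR). *Fermt3*, whose loss blocks integrin activation in blood cells, had 404, 401, 370.4, 350.2 and 328 CPM in *Cited2* CTL and 327, 331, 320.0, 423 and 326 CPM in *Cited2* CKO libraries 1 to 5. CKO 4 stood above all other libraries, and the log2 fold change of -0.10 (SE 0.09, adjusted p = 0.676, edgeR) turned to 0.12 under the correction for gene length and GC content. *Fermt1* and *Fermt2* had 7 to 67 counts per library, with log2 fold changes of -0.10 and -0.82 and adjusted p-values of 0.958 and 0.574 in edgeR. *Tln2*, the other talin, had 0 to 20 counts and was not tested.

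Of the ILK, PINCH and parvin genes, 0 of 4 tested genes were called, with log2 fold changes from -0.12 to 0.15. *Ilk* had 199, 203, 205, 194 and 198 CPM in *Cited2* CTL and 169, 174, 173, 209.6 and 196 CPM in *Cited2* CKO libraries 1 to 5. CKO 1, CKO 2 and CKO 3 were below all *Cited2* CTL libraries and CKO 4 above them, with a log2 fold change of -0.12 (SE 0.07, adjusted p = 0.524, edgeR). *Parvg*, the parvin of hematopoietic cells, had 245, 222, 236, 209.9 and 202 CPM in *Cited2* CTL and 217, 213, 218, 232 and 207 CPM in *Cited2* CKO libraries 1 to 5. The *Cited2* CKO libraries all fell within the *Cited2* CTL range, with a log2 fold change of -0.03 (SE 0.07, adjusted p = 0.872, edgeR). *Lims1*, which encodes PINCH1, had 261 ± 31.0 and 285 ± 38.3 CPM (SD, n = 5 each), while *Parvb* had 2 to 26 and the untested *Parva* 0 to 16 counts per library.

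Among focal adhesion kinases and docking proteins, 4 of 5 genes were tested and 0 called. *Ptk2b*, the focal adhesion kinase relative that prevails in blood cells, had 239.8, 272, 262, 256 and 283 CPM in *Cited2* CTL and 223, 265, 205, 215 and 256 CPM in *Cited2* CKO libraries 1 to 5. CKO 1, CKO 3 and CKO 4 lay below all *Cited2* CTL libraries, with a log2 fold change of -0.17 (SE 0.08, adjusted p = 0.386, edgeR). *Pxn*, which encodes the docking protein paxillin, had 87.9, 77.0, 83.2, 63.1 and 71.3 CPM in *Cited2* CTL and 66.8, 71.5, 64.1, 48.2 and 70.1 CPM in *Cited2* CKO libraries 1 to 5. The groups overlapped, with a log2 fold change of -0.25 (SE 0.13, adjusted p = 0.436, edgeR). The docking protein gene *Bcar1* had 1 to 17 counts per library and was not tested. *Ptk2* and *Nedd9* had log2 fold changes of 0.05 and -0.10 (adjusted p = 0.944 and 0.860, edgeR), and the ratio of *Ptk2b* to *Ptk2* did not differ past the threshold (log2 difference -0.19, exact permutation p = 0.532, adjusted 0.587).

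Of the 5 actin linkers, all were tested and 0 called. *Actn4*, an alpha-actinin that crosslinks actin filaments, had 204, 192, 215, 194 and 198 CPM in *Cited2* CTL and 174, 167, 183, 191 and 146 CPM in *Cited2* CKO libraries 1 to 5. The groups did not overlap (two-sided exact permutation p = 0.00794), but the step was small, from 200.5 ± 9.04 to 172 ± 17.3 CPM (SD, n = 5 each), and CTL 2 at 192 and CKO 4 at 191 CPM nearly touched. The log2 fold change of -0.22 (SE 0.08, adjusted p = 0.265, edgeR) was -0.05 with the correction for gene length and GC content (adjusted p = 0.971).

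*Zyx*, which encodes the mechanosensitive adaptor zyxin, had 216, 207, 217, 194 and 196 CPM in *Cited2* CTL and 197, 227, 159.5, 272 and 217 CPM in *Cited2* CKO libraries 1 to 5. The *Cited2* CKO libraries spread to both sides of the control range, with a log2 fold change of 0.06 (SE 0.11, adjusted p = 0.869, edgeR). *Flna*, the X-linked filamin, had 405 ± 26.0 and 361 ± 37.0 CPM (SD, n = 5 per genotype), and its log2 fold change was -0.16 (adjusted p = 0.394, edgeR), and -0.16 (adjusted p = 0.413) with *Xist* as a covariate. *Vcl*, which encodes vinculin, was at 0.19 on the log2 fold change scale (adjusted p = 0.5005, edgeR), and *Actn1* had 13 to 63 counts per library. Exons of *Itga4*, *Itga7*, *Itga8*, *Itgav*, *Itgad*, *Itgb4*, *Tln1*, *Fermt3*, *Ilk*, *Nedd9*, *Vcl*, *Zyx*, *Actn1* and *Actn4* overlap those of a gene on the opposite strand, and exons of *Itga1*, *Itga10*, *Itgad* and *Itgam* those of a gene on the same strand. The use of strand in counting is not given in the sources used here, so their values may include, or have lost, reads of the other gene.

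**Figure D5:**
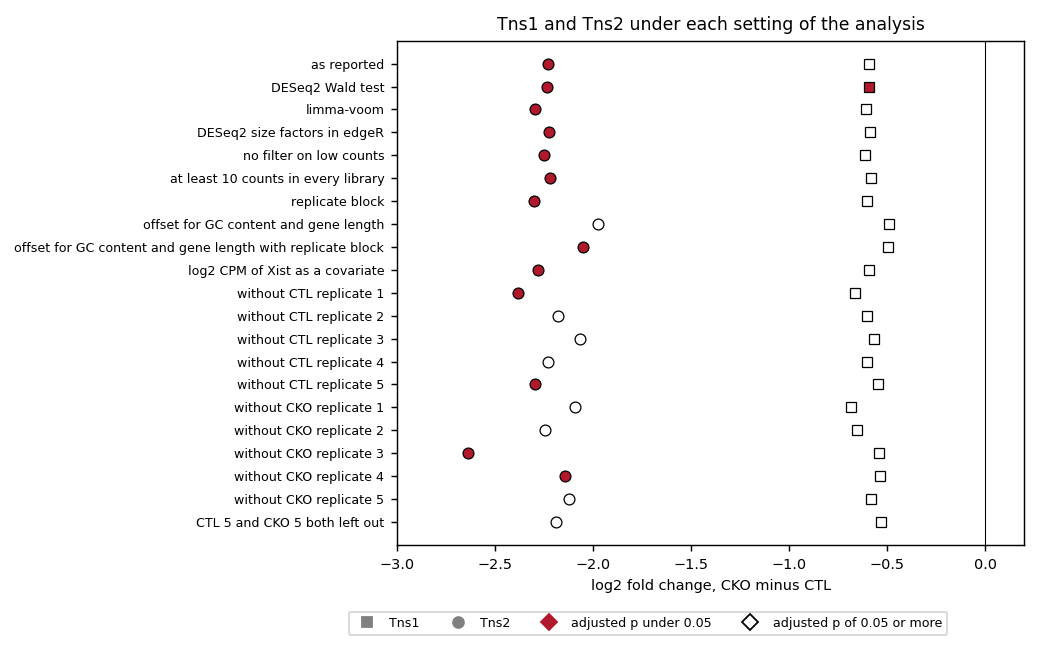
Log2 fold changes (x axis, *Cited2* CKO minus *Cited2* CTL) of *Tns1* (squares) and *Tns2* (circles) as reported and under each alternative setting (rows), filled red where the adjusted p was under 0.05. *Tns2* stays between -2.64 and -1.97 with its call gained or lost between settings, and *Tns1* stays between -0.68 and -0.49 and is filled in the DESeq2 row alone.

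A further 100 genes of the same pathway came from a list of integrin regulators, adaptors, actin linkers and ligands. They showed no call in the edgeR fit used throughout, though some were called under other settings. Of the 83 tested, 41 estimates were higher and 42 lower with a median log2 fold change of -0.01, and edgeR called 0 higher and 0 lower and DESeq2 called 1 higher (*Fyb*) and 2 lower (*Lama5* and *Trip6*), against 1.1% and 1.44% of all genes with an adjusted p in DESeq2. At an unadjusted p under 0.05 edgeR had 4 higher and 12 lower. These were 4.82% and 14.5% of the 83, against 5.8% and 7.08% of all tested genes, a gap that was not tested. This list too was chosen with earlier results of these data known. The CPM of the genotypes did not overlap for 1 higher gene, *Fyb*, and for 4 lower genes, *Rassf5*, *Trip6*, *Lama5* and *Jam3*, which were 1.2% and 4.82% of the 83, against 1.35% and 1.98% of all tested genes.

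*Fyb* encodes the adaptor ADAP, which couples antigen receptors to integrin activation. It had 80.3, 80.3, 89.1, 86.3 and 82.7 CPM in *Cited2* CTL and 124, 134, 101, 138 and 105 CPM in *Cited2* CKO libraries 1 to 5. The lowest *Cited2* CKO library was CKO 3, and the log2 fold change of 0.52 (SE 0.10, adjusted p = 0.0547, edgeR) reached an adjusted p of 0.0218 without that library. *Rassf5*, which encodes RAPL, an effector that carries the RAP1 signal to integrins, had 236 ± 11.5 and 202 ± 3.11 CPM (SD, n = 5 per genotype), and the log2 fold change was -0.22 (SE 0.06, adjusted p = 0.123, edgeR). The RAP1 GTPase-activating gene *Sipa1* was at -0.25 (adjusted p = 0.309, edgeR).

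*Trip6*, a relative of zyxin, had 83.1 ± 2.80 and 60.4 ± 7.62 CPM (SD, n = 5 per genotype), and the log2 fold change was -0.46 (SE 0.10, adjusted p = 0.0913, edgeR). The LIM-domain actin linkers *Pdlim1* and *Pdlim7* were at -0.29 and -0.41 (adjusted p = 0.221 and 0.311, edgeR). Of the adaptors, *Sorbs2* was at 0.96, *Dlc1* at 1.04 and *Sorbs3* at -0.38 on the log2 fold change scale (adjusted p = 0.215, 0.369 and 0.275, edgeR). *Tgfb1i1*, a relative of paxillin, was not tested, although its 0 to 25 counts per library did not overlap between the genotypes, with the lower values in *Cited2* CKO HSCs.

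Among the ligands and counter-receptors, *Lama5*, a laminin chain, had 7.02, 5.81, 11.2, 6.34 and 7.66 CPM in *Cited2* CTL and 2.14, 2.97, 2.84, 1.76 and 0.23 CPM in *Cited2* CKO libraries 1 to 5. The groups did not overlap, but at these low counts the log2 fold change of -1.92 (SE 0.56) had an adjusted p of 0.168 in edgeR. *Jam3* and *Jam2*, junctional adhesion molecules that bind leukocyte and other integrins, were at -0.35 and -0.66 (adjusted p = 0.320 and 0.300, edgeR). *Fga*, a fibrinogen chain, had 0 to 15 counts per library, higher in *Cited2* CKO HSCs without overlap, and was not tested.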

How the data were processed

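Single-ended reads were aligned by the authors with HISAT2 to GRCm38 (mm10) and counted with Rsubread, and the authors deposited raw counts per gene symbol beside a gene length. Annotation, strand, multi-mapping reads and duplicates are not given in the sources used here. The 10 libraries, 1 per mouse, were grouped by label. Genes were kept by filterByExpr (14165 of 26146), scaled by TMM and compared with edgeR 4.0.16 (quasi-likelihood F test, robust, common biological coefficient of variation 25.3%, R 4.3.3), with Benjamini-Hochberg adjustment over all tested genes. CPM used the scaled library total, and RPKM was CPM divided by the deposited length. Ratios used log2(CPM + 1) and an exact permutation test over 252 arrangements. Alternatives were DESeq2 1.42.0, limma-voom (3.58.1), DESeq2 size factors, other filters on low counts, a replicate block, a loess offset (span 50%) for GC content and gene length, *Xist* as a covariate, other thresholds and each library left out. Leaving out CTL 5 and CKO 5 together was chosen after seeing the data. The genes and lists were chosen with earlier results of these data known. Values per library are given for genes that were called, had an unadjusted p under 0.05, did not overlap, or were among the 2 highest of their role by RPKM, and the other pathway genes named are those called, without overlap or among the 3 smallest p of each list, with values per library for *Fyb* and *Lama5*. Positions came from GENCODE and promoters from RefSeq, both on GRCm38. The fits were tested on simulated data with 200 changed genes of 14165. Of these, edgeR recovered 151 with 6 false calls, DESeq2 159 with 34 and limma-voom 146 with 3. These counts are not split by size of change. Recovery of changes as small as the estimates of most adhesion genes here was not tested. The result of 1 marker gene is not reported here.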

Additional observations from a re-analysis of the deposited data

Results flagged for a closer look

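In 50 groups of 5 libraries (*Cited2*, the adhesion genes given per library and the 6 ratios), 4 held a library whose distance to the nearest other exceeded Dixon's critical value, which chance gives in about 1 in 20 groups. They were *Cited2* in the library labelled CKO 3 (120.1 CPM), *Itgam* in CKO 2 (62.1 CPM), *Itgb1* in CTL 1 (408 CPM) and *Fermt3* in CKO 4 (423 CPM). Without CKO 2 the log2 fold change of *Itgam* was 0.63.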

How the results depend on the processing

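Of 597 log2 fold changes under alternatives of 30 genes (18 of the set with values per library and 12 other pathway genes), 583 kept their direction, and 23 genes kept it in every alternative. Over all 39 tested genes of the set, 22 kept their direction in every refit and 17 turned in at least 1. Genes of the set called higher numbered 1 under DESeq2 and 0 under all other settings, leaving out each library included. Those called lower numbered 2 under DESeq2 and at an adjusted p of 0.1, 0 with the length and GC correction, without CTL 5 and CKO 5 together and at an adjusted p of 0.01, and 0 to 1 with each library left out. Of the other pathway genes, 1 was called higher under DESeq2, with at least 10 counts in every library and at an adjusted p of 0.1, and 0 to 1 with each library left out. DESeq2 called 2 lower and an adjusted p of 0.1 gave 1. That correction turned *Itga4* (-0.16), *Itga5* (0.17), *Fermt3* (0.12), *Parvg* (0.10) and *Sipa1* (0.041), and the same with the replicate block turned *Itga4* (-0.18), *Itga5* (0.16), *Itgb1* (-0.0013), *Fermt3* (0.12), *Parvg* (0.10) and *Sipa1* (0.033). With each library left out, *Itga5* ranged from -0.17 to 0.0075 and *Zyx* from -0.044 to 0.15. The log2 ratio of *Tns2* to *Tns3* ranged from -2.77 to -2.14, *Tns2* to *Tns1* from -1.83 to -1.32, *Itga6* to *Itga4* from 0.26 to 0.46 and *Fermt3* to *Fermt2* from -0.057 (without CTL 3) to 0.67. The ratio of *Itga6* to *Itga4* passed without CKO 3 alone (adjusted p = 0.0476). The cause of these changes was not tested.

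Both genotypes carry replicate numbers 1 to 5 in the labels, but same-numbered libraries deviated together only for some numbers (correlations 0.0096, -0.095, 0.21, 0.0027 and 0.19). CTL 5 correlated best with CKO 5, and no other *Cited2* CTL library correlated best with its own number. These values cannot settle whether the numbers pair the samples. With the replicate number as a block, calls over all genes went from 17 higher and 15 lower to 15 and 9, and the estimate for *Tns2* was -2.30 (log2, adjusted p = 0.00467, edgeR). In the block test of the *Tns2* to *Tns3* ratio (-2.45, adjusted p = 0.188), sign flips of 5 differences cannot give less than 0.0625. Over all genes, calls went to 148 and 193 under DESeq2, to 5 and 3 with the length and GC correction and to 27 and 15 without CKO 3. DESeq2 gave 12 genes of the set no adjusted p. Depth limits the precision of genes with few counts.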
